A study of Mus musculus with 12 samples.

Results

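The cardiac core transcription factors measured here were Gata4, Gata6, Nkx2-5, Mef2a, Mef2c, Mef2d, Tbx20, Hand2 and Srf. These 9 genes were chosen by name, as DNA-binding regulators long tied to the heart muscle program, and were found by their NCBI Gene identifiers among the 18079 genes of the deposited table. All 9 were in the table, and all 9 passed the filter on low values, set at FPKM 1 or more in 3 or more libraries. FPKM, the number of fragments mapped to a gene scaled by transcript length and library size, is a level per length, so levels can be set side by side between genes.

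RNA was taken from the left ventricular muscle of 12 C57BL/6 mice (C57BL/6J in the study's methods) and sequenced as 1 library per mouse. Aortic banding (AB), which narrows the aorta and loads the left ventricle with pressure, was done at 8 weeks of age, and Sham mice had the operation without the band. The DMSO+Sham and DMSO+AB groups received the solvent alone. The Hispidulin+Sham and Hispidulin+AB groups received hispidulin, a plant flavonoid, dissolved in DMSO and injected into the peritoneum at 20 mg/kg daily, beginning on the day ahead of the operation. All 4 groups held 3 mice each, with no altered gene named in the labels, and were killed at 12 weeks of age, 4 weeks after surgery. Per the study's methods the mice were male and the band lay on the descending aorta.

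These proteins act as a network. GATA4 and GATA6 are zinc finger proteins, NKX2-5 is a homeodomain protein, TBX20 is a T-box protein, HAND2 is a basic helix-loop-helix protein, and the MEF2 proteins and SRF belong to the MADS-box family. They bind next to each other at promoters and enhancers of heart muscle genes, form complexes with one another, and in the adult heart carry signals of load and growth to genes of the sarcomere and to the natriuretic peptides. Much of that control acts on the proteins, by phosphorylation, by cofactors such as myocardin and by histone deacetylases that hold MEF2 silent, and a transcript level does not measure it.

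The ventricle was recognisable in each library, with 8 cardiomyocyte markers summing to 38792 to 56358 FPKM. DMSO+Sham replicate 3 was the lowest of the 12 in that sum, and the others were at 45813 or more. Markers of the atrium summed to 9.06 to 46.8 FPKM in 9 libraries, and to 794 in Hispidulin+Sham replicate 3, 192 in DMSO+AB replicate 2 and 102 in Hispidulin+AB replicate 3. Of the 6 atrial markers, Bmp10 is not in the table. In a bulk sample, fewer cells of a type and less RNA per cell cannot be told apart.

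DNA sites of these families stand in the promoters of some of the 9 genes themselves and of their known targets. The stretches below are shown because they hold the site of a factor measured here next to a gene whose level is described further on. They are reference sequences from RefSeq (GRCm38.p6), read 5′ to 3′ on the strand of the gene, and capitals mark the match. RefSeq windows, from 250 bases before to 50 bases after the transcription start, were given for 7 of the 9 genes, and Gata4 and Gata6 had none. Among the 7, the promoter of Srf (chr17:46556190-46556269, minus strand) held 2 matches to the CArG box, the site that SRF binds. That of Mef2a (chr7:67372841-67372870, minus strand) held a MEF2 site across the start. That of Hand2 (chr8:57320786-57320841, plus strand) held a GATA motif, searched as AGATAA on both strands.
Srf, 2 CArG boxes: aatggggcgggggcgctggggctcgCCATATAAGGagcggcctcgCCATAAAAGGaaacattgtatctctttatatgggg
Mef2a, MEF2 site: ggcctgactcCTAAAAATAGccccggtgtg
Hand2, GATA motif: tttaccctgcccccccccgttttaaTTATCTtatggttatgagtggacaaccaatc

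A CArG box was present in 1.63% of the 32851 windows of the same length, a MEF2 site in 0.557% and the GATA motif in 11.2%. The 2 boxes of Srf began 82 and 62 bases before the start, and 6 of all windows held 2 or more. A match describes letters only and is neither evidence of binding nor of regulation.

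Only some of the listed targets were searched. Of the SRF targets searched, Acta1 (skeletal α-actin, chr8:123894814-123894873, minus strand) and Actc1 (cardiac α-actin, chr2:114052888-114052947, minus strand) each held a CArG box. Hopx, a cofactor (a homeodomain-only protein that restrains SRF, chr5:77115172-77115231, minus strand), held one as well. Xirp2 (a protein of the intercalated disc, chr2:67445903-67445962, plus strand) held a MEF2 site, and Nppb (brain natriuretic peptide, chr4:147985791-147985846, plus strand) the GATA motif. Before that match the Nppb stretch also reads TGATAA, which the search did not cover and capitals do not mark. No match was found for the other genes searched. A listed target that was not searched may hold a site too, so matches cannot be set against which targets passed.
Acta1, CArG box: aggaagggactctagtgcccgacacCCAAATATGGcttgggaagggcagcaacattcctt
Actc1, CArG box: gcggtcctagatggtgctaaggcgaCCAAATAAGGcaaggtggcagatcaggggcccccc
Hopx, CArG box: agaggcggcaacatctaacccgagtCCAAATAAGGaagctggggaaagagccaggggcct
Xirp2, MEF2 site: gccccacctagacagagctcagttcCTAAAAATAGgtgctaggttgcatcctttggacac
Nppb, GATA motif: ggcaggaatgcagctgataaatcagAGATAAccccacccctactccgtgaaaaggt

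Of the 9 factors, 7 had mean levels above those of 77.2 to 88.6% of the genes tested, while Tbx20 was above 60.7% and Mef2c above 48.2%. Over the 12 mice Nkx2-5 had the highest mean level, 55.2 ± 9.41 FPKM (SD, n = 12), followed by Hand2 with 41.7 ± 8.40, Mef2d with 40.4 ± 3.66 and Srf with 40.2 ± 6.49. Gata4 averaged 30.4 ± 4.72 FPKM, Mef2a 26.7 ± 4.70 and Gata6 25.8 ± 3.32. Tbx20 with 12.6 ± 2.18 FPKM and Mef2c with 8.17 ± 1.11 were the lowest, against a median of 8.68 FPKM over all 11664 genes tested. The order was steady at its ends. Nkx2-5 was highest of the 9 in 11 mice, and Mef2c lowest in all 12. In the middle the neighbours were not separated: Hand2 was above Mef2d in 7 of 12 mice, Mef2d above Srf in 6, Gata4 above Mef2a in 9 and Mef2a above Gata6 in 9. Srf was above Gata4, Gata6 above Tbx20, and Tbx20 above Mef2c in 12 of 12 mice.

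**Figure D1:**
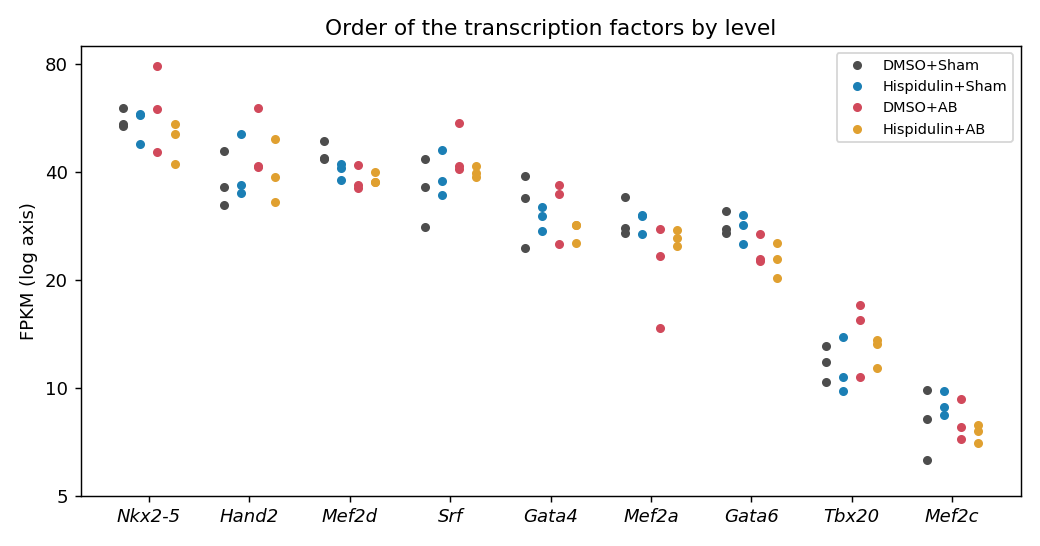
Level of each of the 9 factors in FPKM on a log axis, in order of the mean over 12 mice, with 1 point per mouse coloured by group. Nkx2-5 stands highest with a mean of 55.2 FPKM, Hand2, Mef2d and Srf overlap between 28.04 and 60.05, and Mef2c is lowest with 6.3 to 9.87.

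The factors also differed in how much mice of the same group varied. The residual SD on the log2(FPKM + 1) scale, after taking off the group means, was 0.284 for Hand2, 0.249 for Mef2a and 0.236 for Nkx2-5, and it was 0.0845 for Mef2d. Only 3.82% of the genes tested varied less than Mef2d. The median over the 9 factors was 0.224, against 0.178 over all genes. Hand2 and Mef2d therefore had close mean levels and very unequal spread, and the same difference in level is better resolved for Mef2d.

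The level of a factor was often most extreme in 1 of a few mice. DMSO+AB replicate 3 was the highest of all 12 in Nkx2-5, Hand2 and Srf and the lowest in Mef2a. DMSO+Sham replicate 2 was the highest in Gata4, Mef2a and Mef2c, and DMSO+Sham replicate 3 the lowest in Gata4, Mef2c and Srf. DMSO+AB replicate 3 had the largest root mean square deviation from its group mean over the 9 factors, 0.305 on the log2 scale, where the other libraries had 0.0895 to 0.23. Over all genes DMSO+Sham replicate 3 deviated most, by 0.324.

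**Figure D2:**
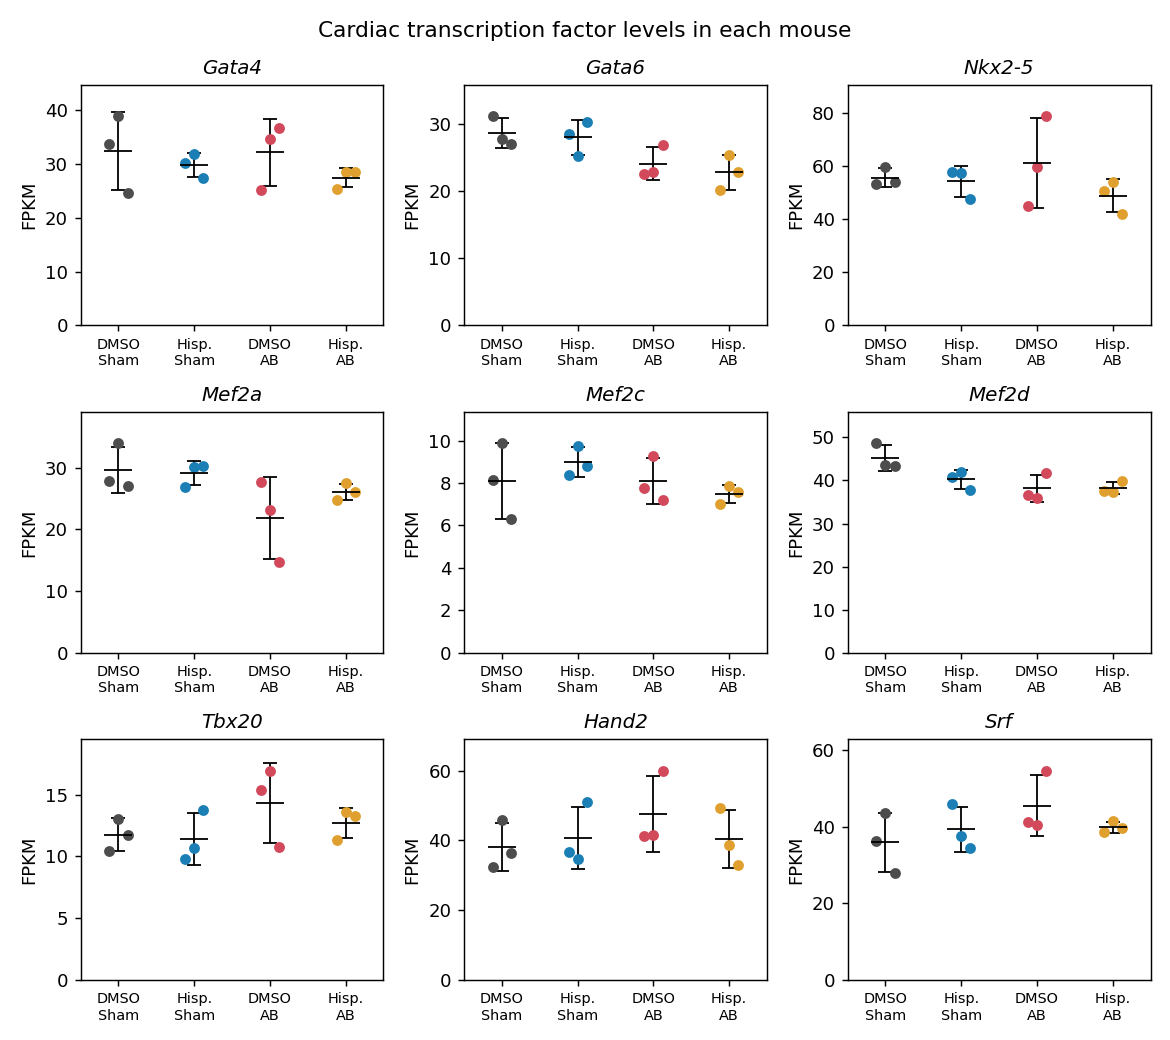
Level of each factor in FPKM by group, with 1 point per mouse, the mean of 3 mice as a horizontal line and the SD as an error bar (Hisp. is hispidulin). Groups overlap in most panels. In the Gata6 panel the DMSO+AB mice lie between 22.6 and 26.8 and the DMSO+Sham mice between 26.9 and 31.1.

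The first comparison asked whether pressure overload alone changed the transcripts of these factors, in DMSO+AB against DMSO+Sham. None of the 9 passed the test (limma on log2(FPKM + 1), Benjamini-Hochberg adjusted p under 0.05 over all 11664 genes), where 5.21% of all genes tested passed. At an unadjusted p under 0.05 there were 2, Mef2a and Mef2d, against 20.4% of all genes. The largest differences in mean were 26.3% lower for Mef2a and 26.7% higher for Srf. In 2 of the 9, Gata6 and Mef2d, every banded mouse lay below every sham mouse, and ranges without overlap were found for 17.9% of all genes, in 10.8% with banded mice lower. With 3 mice against 3 the exact permutation test cannot give a p below 0.1.

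Gata6 and Gata4 bind the same motif and can partly replace each other in heart muscle. Gata6 was at 31.1, 27.7 and 26.9 FPKM in the DMSO+Sham mice and at 22.6, 22.8 and 26.8 in the DMSO+AB mice. The groups did not overlap, though the highest banded mouse was within 0.1 FPKM of the lowest sham mouse. Its log2 fold change of -0.24 (95% interval -0.49 to 0.014) had an adjusted p of 0.273 in limma and an exact two-sided permutation p of 0.1. Gata4 was at 33.7, 38.8 and 24.6 FPKM under Sham and at 25.1, 34.6 and 36.6 under AB. Its groups overlapped almost fully, with means of 32.4 ± 7.23 and 32.1 ± 6.16 (SD, n = 3), and the 95% interval of the log2 fold change ran from -0.37 to 0.37. Of the summed Gata4 and Gata6 level, Gata4 made up 47.5 to 60.3% across the 12 mice.

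NKX2-5 and TBX20 maintain the identity of adult heart muscle, and HAND2 is known best for forming the ventricles of the embryo. Nkx2-5 was at 53.4, 60.0 and 54.1 FPKM in DMSO+Sham and at 45.2, 59.9 and 78.9 in DMSO+AB. The banded mice lay on both sides of the sham mice, and their SD of 16.9 FPKM was the largest of any factor in any group. Its log2 fold change of 0.10 (95% interval -0.28 to 0.48, limma adjusted p 0.786) became -0.098 without DMSO+AB replicate 3. Tbx20 was at 10.4, 13.1 and 11.8 FPKM under Sham and at 15.4, 16.95 and 10.7 under AB. Of the banded mice 2 lay above all sham mice and 1 within their range, and the log2 fold change was 0.25 (95% interval -0.12 to 0.62, adjusted p 0.440), with 0.13 without DMSO+AB replicate 2 and 0.44 without DMSO+AB replicate 3. Hand2 was at 32.3, 45.8 and 36.3 FPKM under Sham and at 41.2, 41.6 and 60.0 under AB. A single banded mouse stood above the sham range, with a log2 fold change of 0.31 (95% interval -0.14 to 0.75, adjusted p 0.436) that was 0.13 without that mouse, DMSO+AB replicate 3.

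The MEF2 proteins bind the same A/T-rich site as dimers and are held in check by class II histone deacetylases until growth signals release them. Mef2d, the most abundant of them, was at 48.6, 43.6 and 43.3 FPKM in DMSO+Sham and at 36.7, 36.0 and 41.6 in DMSO+AB. All banded mice were below all sham mice, by 15.6% in the means. The log2 fold change was -0.24 (95% interval -0.44 to -0.040, unadjusted p 0.0228, limma adjusted p 0.162, exact permutation p 0.1). Mef2a was at 27.9, 34.0 and 27.0 FPKM under Sham and at 27.6, 23.2 and 14.6 under AB. One banded mouse lay inside the sham range and 2 below it, DMSO+AB replicate 3 far below. The log2 fold change was -0.46 (95% interval -0.86 to -0.064, unadjusted p 0.0266, limma adjusted p 0.175). It rested on single mice: it was -0.21 without DMSO+AB replicate 3, and -0.65 with a limma adjusted p of 0.0417 without DMSO+AB replicate 1. Mef2c was at 8.16, 9.87 and 6.30 FPKM under Sham and at 7.76, 9.29 and 7.20 under AB, with each banded mouse inside the sham range and a log2 fold change of 0.0081 (95% interval -0.31 to 0.32).

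**Figure D3:**
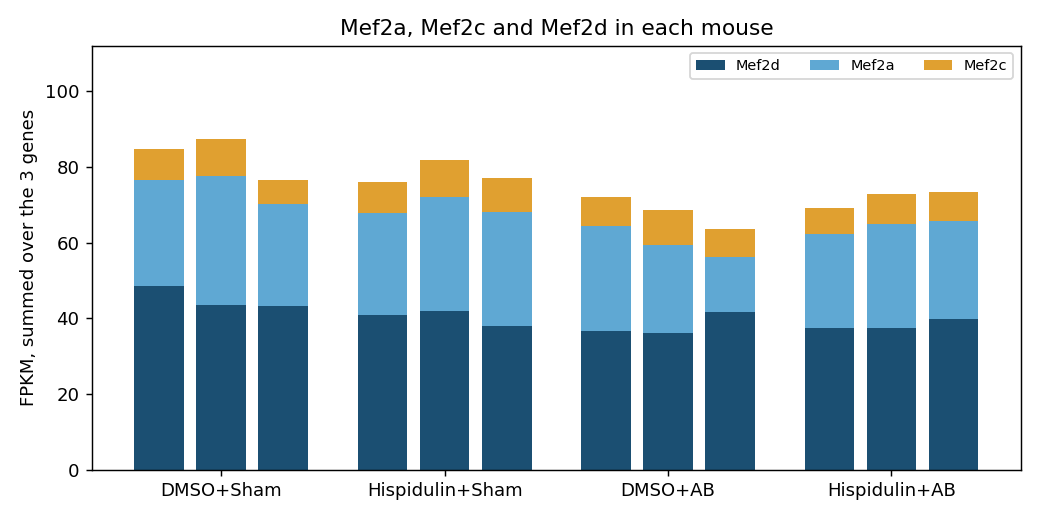
Summed level of Mef2d, Mef2a and Mef2c in FPKM, as 1 stacked bar per mouse in 4 groups of 3. The 6 Sham mice reach 76.1 to 87.4 FPKM and the 6 AB mice 63.5 to 73.4. The sum was chosen after the values had been seen and was not tested.

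Each of the 3 MEF2 genes overlapped between the 6 sham and the 6 banded mice, whereas their sum did not. It was 84.7, 87.4 and 76.6 FPKM in DMSO+Sham, 76.1, 81.9 and 77.0 in Hispidulin+Sham, 72.1, 68.6 and 63.5 in DMSO+AB and 69.3, 72.7 and 73.4 in Hispidulin+AB. Every one of the 6 banded mice was below every one of the 6 sham mice, with means of 69.9 ± 3.70 and 80.6 ± 4.76 FPKM (SD, n = 6). The other sums formed in the same way overlapped: Gata4 and Gata6 together were at 51.5 to 66.5 FPKM under Sham and at 45.5 to 63.5 under AB, and all 9 factors at 258 to 316 and at 252.5 to 331. How many of all genes lie apart between 6 sham and 6 banded mice was not counted, so the separation cannot be set against such a share. The MEF2 sum was formed after the values had been seen, so it is a description and was not tested. Mef2d supplied 49.2 to 65.6% of it, and the highest of these shares was in DMSO+AB replicate 3, where Mef2a was lowest.

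SRF drives muscle actins and immediate early genes through the CArG box. Srf was at 36.3, 43.5 and 28.04 FPKM in DMSO+Sham and at 41.4, 40.6 and 54.7 in DMSO+AB. The banded mice were within or above the sham range, and the lowest of all mice was DMSO+Sham replicate 3, which was also lowest in cardiomyocyte markers. The log2 fold change was 0.34 (95% interval -0.019 to 0.70, limma adjusted p 0.273), and 0.18 without DMSO+Sham replicate 3. The part of that library's marker level in the value was not tested.

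**Figure D4:**
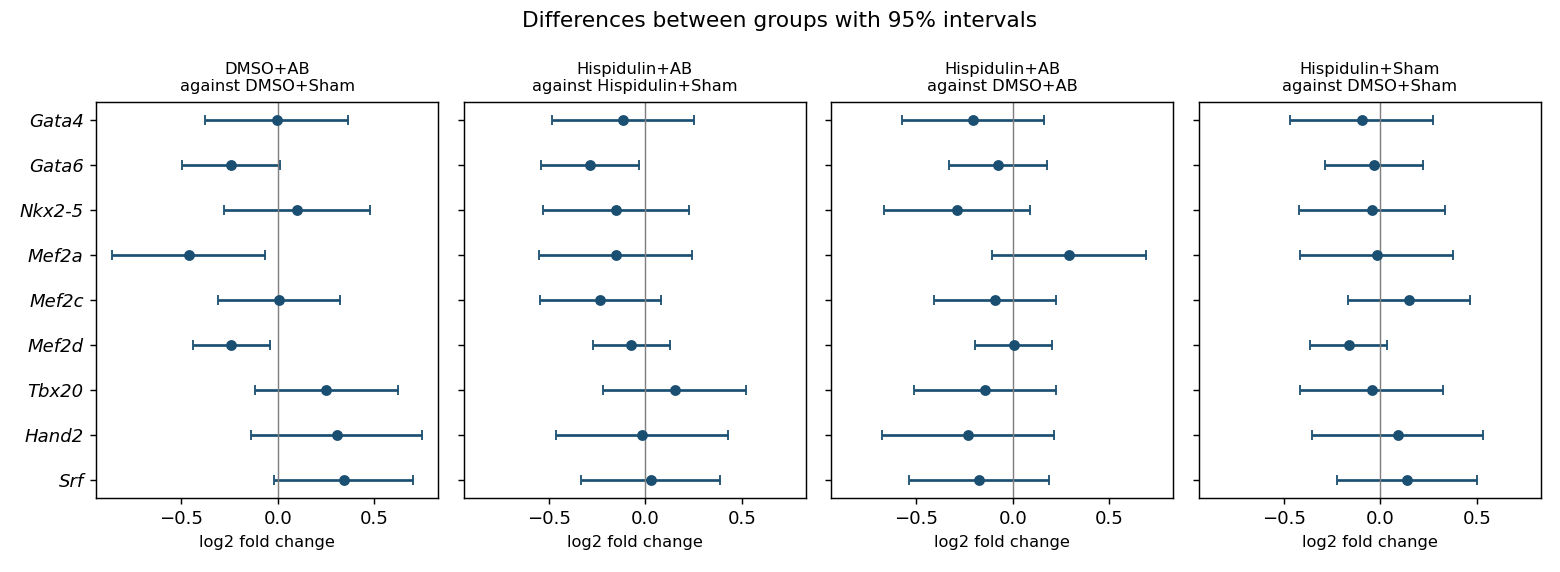
Log2 fold change of each factor on the log2(FPKM + 1) scale in the 4 pairwise comparisons, 1 panel each, as a point with the 95% interval from limma and a grey line at 0. In DMSO+AB against DMSO+Sham the intervals of Mef2a (-0.86 to -0.064) and Mef2d (-0.44 to -0.040) lie below 0, and no factor has an adjusted p under 0.05.

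The next comparison asked the same of mice that received hispidulin, in Hispidulin+AB against Hispidulin+Sham. Again 0 of 9 factors and 0% of all genes passed (limma, smallest adjusted p 0.0857). The unadjusted p was under 0.05 for 847 genes, 7.26%, and for 1 factor. That factor was Gata6, at 28.4, 25.2 and 30.3 FPKM under Sham and at 20.2, 25.4 and 22.8 under AB. Of the banded mice 2 were below the sham range and 1 just inside it, and the log2 fold change was -0.29 (95% interval -0.54 to -0.033, unadjusted p 0.0302, adjusted p 0.639). With the replicate number as a block, 17 genes passed in this comparison and still none of the 9 factors.

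Only Mef2c had ranges apart here, with banded mice lower, against 20.9% of all genes in either direction and 11.8% in that one. It was at 8.37, 9.76 and 8.81 FPKM in Hispidulin+Sham and at 7.03, 7.88 and 7.57 in Hispidulin+AB (log2 fold change -0.23, 95% interval -0.55 to 0.083, limma adjusted p 0.807, exact permutation p 0.1). Mef2d was at 40.9, 42.0 and 37.9 FPKM under Sham and at 37.5, 37.4 and 39.8 under AB, overlapping, with a log2 fold change of -0.071. Mef2a was at 26.9, 30.2 and 30.4 FPKM against 24.8, 27.5 and 26.0, also overlapping, with -0.15. All 3 MEF2 genes had lower means in the banded mice. Between mice of the same replicate number, which were treated as pairs here, Mef2a and Mef2c were lower after banding in 3 of 3 pairs and Mef2d in 2. The labels tie that number to no litter or batch, and the share of all genes lower in 3 of 3 pairs was not counted.

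For the remaining factors the hispidulin groups overlapped as well. Gata4 was at 30.1, 31.8 and 27.4 FPKM under Sham and at 25.4, 28.4 and 28.5 under AB. Nkx2-5 was at 57.9, 57.6 and 47.8 FPKM against 50.8, 54.2 and 42.0. Tbx20 was at 9.76, 10.7 and 13.8 FPKM against 11.3, 13.6 and 13.2. Their log2 fold changes, -0.11, -0.15 and 0.15, all had 95% intervals that included 0. Gata4 was at -0.062 without Hispidulin+AB replicate 1 and Nkx2-5 at -0.046 without Hispidulin+AB replicate 3. Tbx20 was at 0.056 without Hispidulin+Sham replicate 1 and at 0.29 without Hispidulin+Sham replicate 3. Nkx2-5 was lower after banding in 3 of 3 same-numbered pairs, Gata4 in 2 and Tbx20 in 1, again without a share over all genes to set beside them. None of the 9 factors passed in limma with the replicate number as a block. Hand2 was at 36.6, 34.8 and 51.0 FPKM against 49.3, 38.7 and 32.9, and Srf at 46.0, 37.6 and 34.5 against 38.5, 41.5 and 39.7. Their log2 fold changes were -0.016 and 0.029. The highest Hand2 value of these mice was that of Hispidulin+Sham replicate 3, the library with the most atrial marker RNA. Without that library the Hand2 fold change was 0.15 on the log2 scale. Hispidulin+AB replicate 3, with 102 FPKM of atrial markers, had the lowest Hand2 value of these mice. The highest Hand2 value of all 12 mice, 60.05 FPKM in DMSO+AB replicate 3, came with 14.5 FPKM of atrial markers. The part of atrial RNA in the Hand2 values was not tested.

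The direct effect of hispidulin in the banded heart was asked by Hispidulin+AB against DMSO+AB. None of the 9 factors passed, and 0% of all genes did (limma, 362 genes or 3.10% at an unadjusted p under 0.05, none of them a factor). No factor had ranges apart, where 7.88% of all genes did. The estimates were lower for 7 factors and higher for Mef2a and, by 0.0052 on the log2 scale, Mef2d. Nkx2-5 had the lowest, -0.29 (95% interval -0.67 to 0.088, adjusted p 0.996), and Mef2a the highest, 0.29 (95% interval -0.11 to 0.69, adjusted p 0.996). Both depended on DMSO+AB replicate 3, without which they were -0.093 and 0.040. The interval for Mef2d, -0.19 to 0.21, was the narrowest, and that for Hand2, -0.68 to 0.21, the widest.

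In unbanded hearts, Hispidulin+Sham against DMSO+Sham, 0 of 9 factors and 0% of all genes passed (limma, 287 genes or 2.46% at an unadjusted p under 0.05, none of them a factor). Mef2d alone had ranges apart, 40.9, 42.0 and 37.9 FPKM with hispidulin against 48.6, 43.6 and 43.3 with DMSO, where 5.60% of all genes had ranges apart and 2.83% in this direction. Its log2 fold change was -0.16 (95% interval -0.36 to 0.037, limma adjusted p 1.00, exact permutation p 0.1). The largest estimate in the other direction was that of Mef2c, 0.15 (95% interval -0.17 to 0.46), and it was -0.0022 without DMSO+Sham replicate 3. This comparison and the first share their DMSO+Sham mice, and the 4 pairwise comparisons share each group between 2 of them.

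Whether AB acted differently with and without hispidulin was asked by the interaction. Again 0 of 9 factors and 0% of all genes passed (limma, smallest adjusted p 0.9995, 289 genes or 2.48% at an unadjusted p under 0.05, none of them a factor). Estimates ran from -0.32 for Hand2 to 0.31 for Mef2a on the log2 scale, and each of the 9 intervals included 0. Without DMSO+AB replicate 3 these were -0.15 and 0.058. The widest, for Hand2, ran from -0.95 to 0.31, so differences of that size are not excluded by these mice.

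Both treatments were then pooled, AB against Sham with 6 mice each, a comparison added after the data had been seen. It too gave 0 of 9 factors with an adjusted p under 0.05, and 7.39% of all genes (limma, 862). At an unadjusted p under 0.05 there were 3 factors, against 23.3% of all genes, and all 3 were lower after banding. Gata6 came closest, with 28.3 ± 2.18 FPKM in sham mice and 23.4 ± 2.35 in banded mice (SD, n = 6 each), a log2 fold change of -0.26 (95% interval -0.44 to -0.083, adjusted p 0.0761). Mef2a had -0.31 (95% interval -0.59 to -0.026, adjusted p 0.176), which was -0.18 without DMSO+AB replicate 3, and Mef2d had -0.16 (95% interval -0.30 to -0.014, adjusted p 0.174). The ranges of all 9 factors overlapped between the 6 sham and the 6 banded mice, and the share of all genes with ranges apart was not counted here.

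Several genes that work with these factors, or under them, did pass in DMSO+AB against DMSO+Sham. The lists named here were drawn up from general knowledge of the pathway, with earlier results of these data known, and are described by counts only. Their genes are set against a median log2 fold change of -0.035 over all genes tested, of which 2.50% rose and 2.71% fell.

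Of the relatives of the 9 factors, 7 of 8 were in the table and 4 were tested, with 0 that rose and 0 that fell. Gata5 and Mef2b were below 0.5 FPKM in each mouse, Hand1 was listed at 0 in 11 of 12, and Nkx2-6 was not in the table. Tbx5, a T-box factor that pairs with NKX2-5 and GATA4, was at 14.7, 8.61 and 14.0 FPKM under Sham and at 6.47, 7.15 and 9.27 under AB. The groups overlapped only through the low DMSO+Sham replicate 2, and the log2 fold change of -0.62 (95% interval -1.01 to -0.23) had an adjusted p of 0.0709 in limma. Without that mouse the log2 fold change was -0.85 (limma adjusted p 0.00709), and with library weights it was -0.83 (adjusted p 0.00748). Tbx5 passed in 3 of 19 alternatives in this comparison. Over both treatments Tbx5 fell by 0.61 on the log2 scale (limma adjusted p 0.0163), a call it kept in 17 of 18 alternatives.

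Among 17 partner proteins and cofactors, all tested, 0 rose and 1 fell, with a median log2 fold change of -0.031. The 1 was Zfpm2 (FOG2), which binds GATA4 and GATA6 and modulates them. It was at 4.01, 4.95 and 4.15 FPKM in DMSO+Sham and at 2.36, 2.25 and 2.08 in DMSO+AB. Every banded mouse was below every sham mouse, with a mean 49.0% lower, and Zfpm2 fell by 0.73 on the log2 scale (95% interval -0.97 to -0.49, limma adjusted p 0.00807). In mice with hispidulin it was at 3.15, 3.25 and 3.34 FPKM under Sham and at 2.01, 2.28 and 2.64 under AB, with a log2 fold change of -0.36 and an adjusted p of 0.494.

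Cofactors of SRF did not pass. Myocd (myocardin), which SRF needs for its muscle genes, was at 5.09, 10.9 and 10.9 FPKM under Sham and at 11.1, 7.41 and 7.39 under AB. The groups overlapped, with a log2 fold change of -0.0080 (95% interval -0.55 to 0.53). Hopx was at 205, 381 and 135 FPKM under Sham and at 243, 136 and 149 under AB, with a log2 fold change of -0.36 (95% interval -1.03 to 0.31, limma adjusted p 0.546), which was 0.036 without DMSO+Sham replicate 2. Hdac4, a deacetylase that represses MEF2, missed the threshold in DMSO (log2 fold change -0.46, limma adjusted p 0.0685). It fell by 0.40 over both treatments (limma adjusted p 0.0248), a call that held in 12 of 18 alternatives and was lost without DMSO+Sham replicate 1, Hispidulin+Sham replicate 2, DMSO+AB replicate 2, Hispidulin+AB replicate 1 or Hispidulin+AB replicate 3 (limma adjusted p 0.0533 to 0.0663).

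Of 16 other heart transcription factors 14 were tested, with 0 that rose, 2 that fell and a median of -0.10. Prox1, a homeodomain factor needed for sarcomere structure in the embryo, was at 9.02, 10.1 and 8.83 FPKM in DMSO+Sham and at 3.91, 4.92 and 4.80 in DMSO+AB. It fell by 0.90 on the log2 scale (95% interval -1.17 to -0.63, limma adjusted p 0.00434). Klf15, a repressor of cardiac growth that inhibits GATA4, MEF2 and myocardin, was at 60.6, 43.2 and 58.9 FPKM under Sham and at 33.1, 26.5 and 37.6 under AB. It fell by 0.72 (limma adjusted p 0.0278), a call that held in 13 of 19 alternatives and was lost without DMSO+Sham replicate 1 (adjusted p 0.115), DMSO+Sham replicate 3 (0.0635) or DMSO+AB replicate 2 (0.107). The ranges of both genes were apart, and the 2 that fell belong to the same list as Irx5, which was 0.72 higher on the log2 scale with an adjusted p of 0.149.

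Among the known targets 4 rose, 1 fell and the rest did not pass. Of 11 SRF targets 1 rose and 0 fell, with a median of 0.42. Acta1, the gene whose CArG box is printed above, was at 234, 320 and 208 FPKM in DMSO+Sham and at 2141, 4373 and 8828 in DMSO+AB. It rose by 4.12 on the log2 scale (95% interval 3.18 to 5.06, limma adjusted p 0.00320), while Srf itself had 0.34. Actc1, with a CArG box as well, had 0.78 (limma adjusted p 0.235), which was 0.21 without DMSO+Sham replicate 3, where Actc1 was lowest of the 12 mice at 2741 FPKM, and 1.16 without DMSO+Sham replicate 2 (adjusted p 0.0472). The highest Acta1 and the highest Srf values were both in DMSO+AB replicate 3, and without it Acta1 rose by 3.61.

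Of 9 targets of GATA4 and NKX2-5, 2 rose and 0 fell, with a median of 0.10. Nppa (atrial natriuretic peptide) was at 71.8, 269 and 94.95 FPKM under Sham and at 680, 6043 and 5738 under AB, and rose by 4.54 on the log2 scale (limma adjusted p 0.0121). Nppa is abundant in the atrium, and the highest value of the 6 sham mice, 967 FPKM, was in Hispidulin+Sham replicate 3, the library with 794 FPKM of atrial markers. Among banded mice DMSO+AB replicate 2, with 192 FPKM of atrial markers, had the highest Nppa, but DMSO+AB replicate 3 was close to it, at 5738 FPKM, with 14.5 FPKM of atrial markers. Hispidulin+AB replicate 3, with 102 FPKM of atrial markers, had 850 FPKM of Nppa. The part of atrial RNA in the Nppa values was not tested. Nppb was at 111, 366 and 143 FPKM under Sham and at 1394, 1774 and 1451 under AB, with ranges far apart, and rose by 3.08 (limma adjusted p 0.00360). Gata4 and Nkx2-5 had log2 fold changes of -0.0044 and 0.10 in the same mice.

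Of 9 MEF2 targets 1 rose and 1 fell, with a median of 0.15. Xirp2, with a MEF2 site printed above, was at 40.6, 36.2 and 36.9 FPKM in DMSO+Sham and at 202, 208 and 118 in DMSO+AB. It rose by 2.14 on the log2 scale (limma adjusted p 0.00376), in the mice in which Mef2a and Mef2d had the negative estimates given above. Hrc, a calcium-binding protein of the sarcoplasmic reticulum, was at 429, 445 and 354 FPKM under Sham and at 339, 201 and 254 under AB, and fell by 0.65 (limma adjusted p 0.0469). The Hrc call held in 5 of 19 alternatives, whereas Acta1, Nppb and Xirp2 passed in 19 of 19, Zfpm2 and Prox1 in 18, and Nppa in 14. Without DMSO+Sham replicate 1 the adjusted p was 0.0563 for Nppa and 0.153 for Hrc. Nppa also missed the threshold without DMSO+AB replicate 2 (limma adjusted p 0.0591) or DMSO+AB replicate 3 (0.0530), and Hrc when any library except DMSO+Sham replicate 3 or DMSO+AB replicate 1 was left out.

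**Figure D5:**
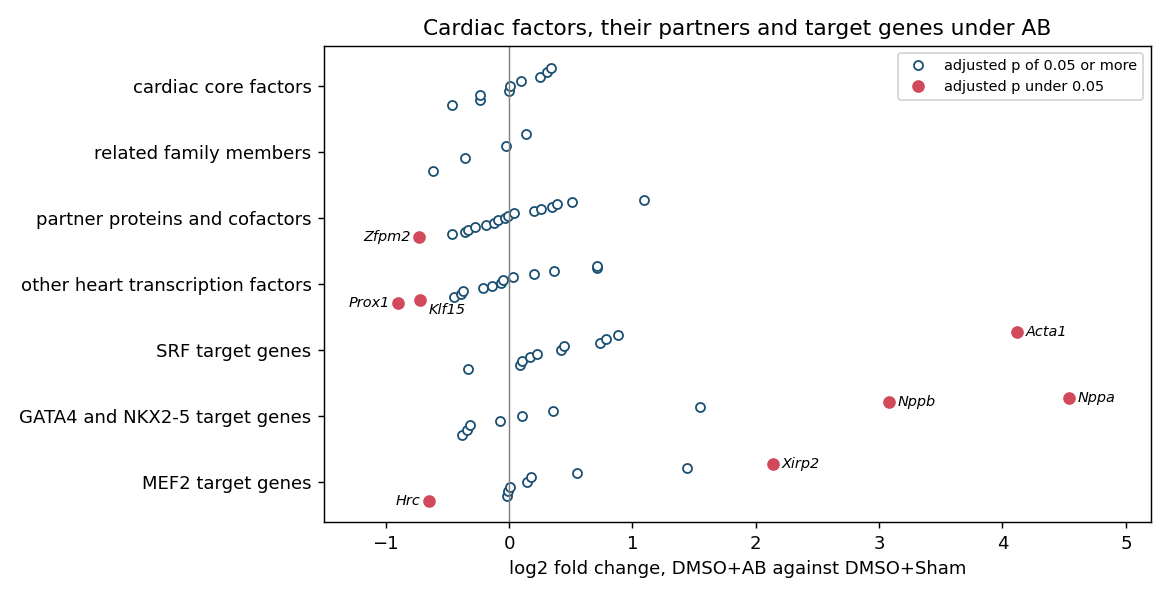
Log2 fold change on the log2(FPKM + 1) scale in DMSO+AB against DMSO+Sham, with 1 point per gene tested in each list and filled, named points for genes with a limma adjusted p under 0.05. The 9 factors lie between -0.46 and 0.34, and Nppa (4.54) and Acta1 (4.12) are the highest of all genes shown.

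With hispidulin, none of the genes in these lists passed in Hispidulin+AB against Hispidulin+Sham or in Hispidulin+AB against DMSO+AB (limma, 0% of all genes). Acta1 was at 456, 339 and 272 FPKM in Hispidulin+Sham and at 1893, 4206 and 2824 in Hispidulin+AB, with a log2 fold change of 3.02 and an adjusted p of 0.0857. Nppb was at 352, 210 and 298 FPKM against 1103, 801 and 1250, with 1.88 and an adjusted p of 0.178. Xirp2 was at 40.2, 43.5 and 71.5 FPKM against 133, 124 and 201, with 1.56 and an adjusted p of 0.102. In each of these 3 targets all banded mice were above all sham mice, as in 9.14% of all genes. Nppa, the other target that rose in DMSO-treated mice, overlapped here, at 204, 264 and 967 FPKM against 666, 1047 and 850. Its log2 fold change was 1.17 (95% interval -0.59 to 2.93, limma adjusted p 0.852). In Hispidulin+AB against DMSO+AB Nppa had -1.77 and overlapped as well (limma unadjusted p 0.0489, adjusted 0.9959), and its interaction was -3.37 (unadjusted p 0.0122). The interactions of Nppb, Acta1 and Xirp2 were -1.20, -1.10 and -0.59 (limma unadjusted p 0.0350, 0.0957 and 0.135). None of the 4 targets had an adjusted interaction p under 0.05 (limma 0.9995 for each), so a difference between the treatments was not shown.

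Over both treatments 3.52% of all genes rose and 3.87% fell. Targets that passed beside those named were Myh7 (β-myosin heavy chain, 1.93 on the log2 scale, adjusted p 0.0228), Tnnc1 (cardiac troponin C, 0.31, adjusted p 0.0287), Tagln (transgelin, a smooth muscle actin-binding protein, 0.49, adjusted p 0.0430) and Xirp1 (a relative of Xirp2, 1.48, adjusted p 0.0381), all higher after banding in limma. Each lost the call in some of its 18 alternatives, Myh7 in 8, Tnnc1 in 10, Tagln in 12 and Xirp1 in 11, mostly when a single library was left out. Their adjusted p values reached at most 0.0592 for Myh7, 0.0997 for Tnnc1, 0.102 for Tagln and 0.117 for Xirp1. Xirp1 was at 396, 242 and 327 FPKM in DMSO+AB replicate 1, Hispidulin+AB replicate 1 and Hispidulin+AB replicate 3. In the other banded mice it was at 108 to 138 FPKM, against 41.7 to 121 in the sham mice.

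Some markers of fibroblasts and of heart muscle cells passed in DMSO+AB against DMSO+Sham, while in Hispidulin+AB against Hispidulin+Sham 0 markers did. Fibroblast markers summed to 336 to 406 FPKM in DMSO+Sham and to 374, 884 and 592 in DMSO+AB, and 3 of the 7 rose there (Col1a1, Col1a2 and Postn). Of 8 cardiomyocyte markers 0 rose and 2 fell in the same comparison, Pln by 0.62 and Ryr2 by 0.59 on the log2 scale (limma adjusted p 0.0396 and 0.0364). No fibroblast or cardiomyocyte marker passed without DMSO+Sham replicate 1, DMSO+AB replicate 2 or DMSO+AB replicate 3. Without DMSO+Sham replicate 3 the counts were 1 and 0, and without any 1 hispidulin library they were 1 fibroblast marker and 0 or 1 cardiomyocyte marker. Each count stayed within 1.5 times its value in 6 of 19 alternatives.

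Endothelial, smooth muscle and pericyte, macrophage, mesothelial, blood and atrial markers gave 0 calls in DMSO+AB against DMSO+Sham, and over both treatments the 1 call among them was Tagln. Genes that respond to tissue handling summed to 39.9 to 202 FPKM over the 6 sham mice and to 134 to 813 over the 6 banded mice. DMSO+AB replicate 1, Hispidulin+AB replicate 1 and Hispidulin+AB replicate 3 were at 809, 495 and 813. The other banded mice, at 134 to 162, lay within the sham range. Xirp1 was highest in those same high libraries, and a tie was not tested. Of 7, 3 rose over both treatments (Jun, Atf3 and Hspa1b), against 3.52% of all genes. All 7 had an unadjusted p under 0.05 in limma, against 23.3% of all genes. Fos and Egr1 among them are also in the list of SRF targets. In DMSO+AB against DMSO+Sham 1 rose, Jun, a call that held in 7 of 19 alternatives and was lost without DMSO+Sham replicate 1 or 3, Hispidulin+Sham replicate 1 or 3, any 1 DMSO+AB library or Hispidulin+AB replicate 1. The part of these in the levels of the 9 factors was not tested.

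Across the 12 mice, the factors did not rise and fall together in a way that passed a test. Of 36 pairs of factors, 0 had an adjusted p under 0.05 by Pearson's or Spearman's correlation (100000 permutations, two-sided). The pair with the largest r was Gata4 and Nkx2-5, with r = 0.682 (permutation p 0.0113, adjusted 0.275) and rho = 0.727 (permutation p 0.00945, adjusted 0.226). Without the 2 mice farthest from the median of Gata4, r was 0.534, and after taking off the group means it was 0.622. Mef2d and Tbx20 had r = -0.671 (permutation p 0.0161, adjusted 0.275). After taking off the group means, r was -0.803 for Mef2d and Tbx20, 0.786 for Mef2a and Tbx20 and 0.751 for Gata4 and Srf. Values after group means were not tested.

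The genes most alike in pattern to each factor over the 12 libraries, by Pearson's r on log2(FPKM + 1) and as a description only, were others than the 9. For Mef2a they were Svip (0.973), Uqcrc2 (0.959) and Zdhhc17 (0.957), and for Mef2d Rxra (0.931), Slc25a38 (0.915) and Cdk18 (0.904). Gata4 was closest to Cxxc5 (0.943), Gata6 among genes with a symbol to Zc3h6 (0.906), Nkx2-5 to Pagr1a (0.920) and Tbx20 to Rnf170 (0.933). Mef2c was closest to Abca8a (0.924) and Srf to Dipk1b (0.918). Hand2 had the weakest best match, E130309D02Rik (0.840). High r values of this kind arise when the best of 11664 genes is taken over 12 points that share libraries and surgery.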

How the data were processed

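RNA from the left ventricles of 12 mice was measured, with the groups given by the labels. Per the labels, single-end 50-base reads were made on a BGISEQ-500, and the submitters' processing notes name HISAT2 2.0.4, Bowtie2 2.2.5, RSEM 1.2.12 and DESeq2 1.4.5. Genome build and annotation are not given in the sources used here. The deposited values are FPKM per gene, which the authors computed and rounded to 0.01. They summed to 535235 to 567027 per library. Steps between low values were examined: 16.4% of 20214 ratios were whole to within 0.1, where an even spread gives 20%. The depth is therefore unknown, and no counting interval is given.

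Symbols were matched to NCBI Gene identifiers for 17947 of 18079 genes. The 9 factors and all gene lists were chosen with earlier results of these data known. Within groups Spearman's rho between libraries was 0.968 to 0.986, between groups it was 0.963 to 0.986, and no libraries were identical. In R 4.3.3 with limma 3.58.1, log2(FPKM + 1) was fitted with 1 mean per group over 12 libraries (8 error degrees of freedom, eBayes with trend, two-sided, Benjamini-Hochberg adjustment over the 11664 genes that reached FPKM 1 in 3 or more libraries). A fold change on this scale understates the change of low genes. The fit was tested on simulated data. Genes named were the 9 factors, Myocd, Hopx, Zfpm2 and Tbx5, the genes of each list that passed in any comparison (up to 6 by size), and the 3 genes most correlated with each factor; not all of the last are printed. Actc1, Irx5, Gata5, Mef2b and Hand1 were named after their values were seen.

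Same-numbered mice are different animals, and the labels tie the number to no litter or batch. Residuals of same-numbered libraries correlated by 0.148, 0.197 and 0.228 between the hispidulin groups and by 0.126, 0.330 and 0.232 between the sham groups, over 0.1 in each, so the number was treated as pairing there. It was not treated so in DMSO+AB against DMSO+Sham or in Hispidulin+AB against DMSO+AB. Residuals of libraries with unlike numbers were not correlated for comparison, so the pairing rests on these values alone. Alternatives were 0.1 added in place of 1, no filter on low values, median-of-ratios scaling, the compared libraries only, library weights, the replicate block, the animal number series as covariate, and each library left out. Promoters were searched in Python 3.11.15.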

Additional observations from a re-analysis of the deposited data

Results flagged for a closer look

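Mef2c was the 1 factor whose difference with hispidulin had every hispidulin mouse on one side of the DMSO mean in sham mice and every one on the other side in banded mice. In Hispidulin+Sham against DMSO+Sham it was 0.15 on the log2(FPKM + 1) scale, with all 3 hispidulin mice above the DMSO mean. In Hispidulin+AB against DMSO+AB it was -0.091, with all 3 hispidulin mice below the DMSO mean. Single mice of the groups overlapped in both, and the interaction of -0.24 had an unadjusted p of 0.263 and an adjusted p of 0.9995 in limma. Opposite signs of the 2 differences were not particular to Mef2c: Srf, Hand2, Mef2a and Mef2d had them too. The sham difference of Mef2c was -0.0022 without DMSO+Sham replicate 3.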

How the results depend on the processing

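None of the 9 factors passed in any comparison as reported, and of 1008 values of a factor under an alternative, 952 kept direction and side of the threshold, 51 turned sign and 5 came to pass. The last were Mef2d in DMSO+AB against DMSO+Sham with library weights (-0.34, adjusted p 0.0272, so that 1 factor passed), Mef2a there without DMSO+AB replicate 1 (0 to 1 factors over the fits that leave out a library), and, over both treatments with library weights, 3 factors: Gata6 (-0.32), Mef2d (-0.22) and Tbx20 (0.31). Adjusted p ranged from 0.0272 to 0.497 for Mef2d and from 0.0417 to 0.471 for Mef2a in DMSO+AB against DMSO+Sham.

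The number of genes passing varied more. In DMSO+AB against DMSO+Sham it was 608, 358 without the filter, 11 with the compared libraries only, 1423 with library weights, 142 with the animal number series and 91 (without DMSO+Sham replicate 1) to 1050 (without DMSO+Sham replicate 2) when a library was left out. In Hispidulin+AB against Hispidulin+Sham it was 0, 2 without the filter, 2 with median-of-ratios scaling, 49 with the compared libraries only, 209 with library weights, 17 with the replicate block and 0 to 10 (without DMSO+AB replicate 1) with a library left out. It was 0, 2 without the filter and 0 to 20 with a library left out in Hispidulin+AB against DMSO+AB, and 0 to 3 for the interaction, both highest without DMSO+AB replicate 1. Over both treatments it was 862, 2535 with library weights, 547 with the animal number series and 373 (without Hispidulin+AB replicate 3) to 1210 (without DMSO+Sham replicate 2) with a library left out. The cause was not tested. The animal number series and the fit without DMSO+Sham replicate 1 are not independent checks, since that mouse was alone in its series. The replicate block moved no other count of genes by over 1.5 times and gave 0 passing factors in each comparison; in DMSO+AB against DMSO+Sham, where the number did not pair mice, 640 genes passed with it, Tbx5 among them (limma adjusted p 0.0440). A fit on the compared libraries alone was not made for the interaction or over both treatments.

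Estimates near 0 turned sign, each with an interval that includes 0. With scaling, Gata4 was 0.021 and Myocd 0.017 in DMSO+AB against DMSO+Sham. With library weights, Myocd was 0.40 there, Hand2 0.12 in Hispidulin+AB against Hispidulin+Sham, Nkx2-5 0.031, Mef2a 0.030 and Tbx20 0.018 in Hispidulin+Sham against DMSO+Sham, and Gata6 0.071 for the interaction. With the animal number series, Gata4 was 0.082 in DMSO+AB against DMSO+Sham, Gata6 0.026 and Hand2 -0.013 in Hispidulin+Sham against DMSO+Sham, and Gata4 0.030, Nkx2-5 0.0033 and Myocd -0.054 over both treatments.

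Of the 54 estimates of a factor over the 6 comparisons, leaving out a single library turned the sign of 21 and moved a further 23 by over 1.5 times, so their order by size is not firm. The ranges where the sign turned were as follows. In DMSO+AB against DMSO+Sham they were -0.18 to 0.16 for Gata4, -0.33 to 0.16 for Myocd, -0.71 to 0.036 for Hopx, -0.14 to 0.145 for Mef2c and -0.098 to 0.30 for Nkx2-5. In Hispidulin+AB against Hispidulin+Sham they were -0.17 to 0.15 for Hand2 and -0.059 to 0.14 for Srf. In Hispidulin+AB against DMSO+AB they were -0.033 to 0.069 for Mef2d, -0.16 to 0.0018 for Mef2c and -0.15 to 0.0034 for Gata6. In Hispidulin+Sham against DMSO+Sham they were -0.088 to 0.040 for Gata6, -0.078 to 0.23 for Hand2, -0.28 to 0.045 for Gata4, -0.087 to 0.049 for Nkx2-5, -0.079 to 0.081 for Mef2a, -0.18 to 0.052 for Tbx20, -0.0022 to 0.285 for Mef2c and -0.024 to 0.28 for Srf. For the interaction they were -0.27 to 0.070 for Gata4, -0.12 to 0.034 for Gata6 and -0.28 to 0.034 for Tbx20, and over both treatments -0.045 to 0.20 for Myocd, -0.15 to 0.022 for Gata4 and -0.12 to 0.074 for Nkx2-5.

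The table holds no counts, so the depth behind each value is unknown. With 3 mice a group the standard error of a log2 fold change ran from 0.0917 for Mef2d to 0.204 for Hand2, which limits what could be resolved. Median-of-ratios scaling shifted the median of all genes by at most 0.022.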
